A study of Rattus norvegicus with 12 samples.

Results

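Glucose uptake and glycolysis genes were followed across 4 groups of cultured rat heart muscle cells. The set comprised 35 genes chosen by symbol: glucose transporters, the enzymes of glycolysis, the enzymes and carriers of lactate, the main glycogen enzymes, and 4 regulators of these steps. A member had to match a gene symbol in the deposited count table and to have at least 10 counts in at least 3 libraries. Of the 35 genes, 33 matched a row, and all 33 met the count minimum and were tested, out of 14063 tested genes in a table of 32883. Gapdh and Pfkfb4 matched no row by symbol and were not analysed here.

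The cells were primary ventricular cardiomyocytes of neonatal rats, a primary culture and not a clonal line, which can hold other heart cells. All 4 groups carried an adenovirus for 2 days, and each group held 3 libraries. LacZ, a bacterial enzyme gene, was the control. The other groups received human KAT6A, a lysine acetyltransferase that acts on histones, as the wild type (WT) or with 1 lysine replaced by arginine (K815R) or by glutamine (K815Q). Arginine keeps the positive charge of lysine and cannot be acetylated, and glutamine is commonly used to mimic an acetylated lysine. Nothing in the labels says that the libraries of a group came from separate cultures or animals, so the p-values below measure the spread between these libraries, which may be technical.

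Glucose enters heart muscle cells through GLUT1, encoded by Slc2a1, which sits in the surface membrane, and through GLUT4, encoded by Slc2a4, which moves to the surface when insulin or the energy sensor AMPK is active. Hexokinase traps glucose as glucose 6-phosphate, which is stored as glycogen or passed down glycolysis through phosphofructokinase, the main control point, to pyruvate. Pyruvate is oxidised in mitochondria or reduced to lactate and exported. Newborn heart muscle relies on glycolysis more than adult heart muscle, which burns mostly fatty acids.

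Total counts over genes ran from 19102048 to 25451686 per library, and a count of 3, taken as the lowest readable level, corresponded to 0.118 to 0.156 CPM. CPM are counts divided by library size, here with each library size first multiplied by its TMM scaling factor (0.968 to 1.02). The rat Kat6a gene, which collects reads of the delivered human sequence only as far as these align to it, averaged 48.1 ± 4.75 CPM (SD, n = 3) with LacZ, 93.0 ± 12.3 with WT and 108 ± 11.7 with K815R. In the K815Q-labelled libraries it averaged 46.3 ± 3.35 CPM, no higher than with LacZ, which goes against the label. Prkaa2, the catalytic alpha 2 subunit of AMPK, spanned 54.8 to 72.7 CPM in LacZ, 435 to 633 in WT, 78.1 to 95.4 in K815R and 1134 to 1232 in K815Q-labelled libraries. Cardiomyocyte markers were abundant in every library: 6 of 7 listed markers matched, none was at 0, and together they summed to 33987 to 35464 CPM in LacZ, 35369 to 36546 in WT, 36587 to 37612 in K815R and 34650 to 36497 in K815Q-labelled libraries. The 7 fibroblast markers were also all present, at 11802 to 12667, 10941 to 11990, 11043 to 11489 and 11891 to 12781 CPM in the same order. In such bulk RNA, fewer cells of a type and less RNA per cell cannot be told apart.

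Few of the 33 genes passed the test for a difference between groups. Genes count as called below where the quasi-likelihood test of edgeR gave an adjusted p under 0.05, adjusted by Benjamini-Hochberg over all tested genes. Against LacZ, only Gbe1, the glycogen branching enzyme, was called, and it fell in all 3 groups. In WT this was 1 of 33 members, where 5.34% of all tested genes were called (3.39% as lower). In K815R it was 1 of 33 beside a background of 2.47% (1.74% lower), and in K815Q-labelled libraries 1 of 33 beside 7.85% (4.98% lower). Among the other groups, 3 of 33 members were called in K815R against WT, beside 2.20% of all genes (1.32% higher, 0.882% lower): the glucose transporter Slc2a1 and the lactate exporter Slc16a3 rose, and Pgam2, the muscle isoform of phosphoglycerate mutase, fell. No member was called by edgeR in K815Q-labelled libraries against WT, where the background was 1.07%, and DESeq2 also called 0. In K815R against the K815Q-labelled libraries edgeR called 0 members beside a background of 0.363%. DESeq2 called 2 members there, while alternatives that left no single library out, DESeq2 among them, called 37 to 307 of all genes. At an unadjusted p under 0.05 by edgeR stood 6 members in WT, 8 in K815R and 6 in K815Q-labelled libraries against LacZ. Against WT there were 11 in K815R and 1 in K815Q-labelled libraries, and 7 in K815R against the K815Q-labelled libraries. The share of all genes at an unadjusted p under 0.05 was not counted, so no background stands beside these. A test over all 4 groups at once called 5 of 33 members (Gbe1, Slc2a1, Pgam2, Slc16a3 and Pgam1), beside 8.13% of all genes. The remaining 28 members were called in neither kind of test.

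Fold changes of the set were small. The median log2 fold change of the 33 members was -0.04 in WT, 0.01 in K815R and -0.07 in K815Q-labelled libraries, each against LacZ, where the medians over all tested genes were 0.01, 0.00 and 0.01. It was 0.04 in K815R against WT, -0.04 in K815Q-labelled libraries against WT, and 0.08 in K815R against the K815Q-labelled libraries, where each median over all genes was 0.00. By sign alone, against LacZ, 15 of 33 members were higher in WT, 19 in K815R and 7 in K815Q-labelled libraries, where 52.4%, 51.2% and 51.7% of all genes were higher. Against WT, 21 were higher in K815R and 14 in K815Q-labelled libraries, beside 49.0% and 48.8% of all genes, and 25 were higher in K815R than in the K815Q-labelled libraries, beside 49.8%. The 3 libraries of 1 group all lay above or all below those of the other for 10 members in WT against LacZ (background 24.6%), 7 in K815R against LacZ (18.7%) and 6 in K815Q-labelled libraries against LacZ (28.4%). Such separation held for 11 members in K815R against WT (19.0%), 3 in K815Q-labelled libraries against WT (19.3%) and 9 in K815R against the K815Q-labelled libraries (16.0%). As shares of the 33 members these came to 30.3%, 21.2% and 18.2% against LacZ, and to 33.3%, 9.09% and 27.3% between the other groups. Comparisons with LacZ share the LacZ libraries, and comparisons with WT share the WT libraries, so their values are given side by side and were not correlated.

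**Figure D1:**
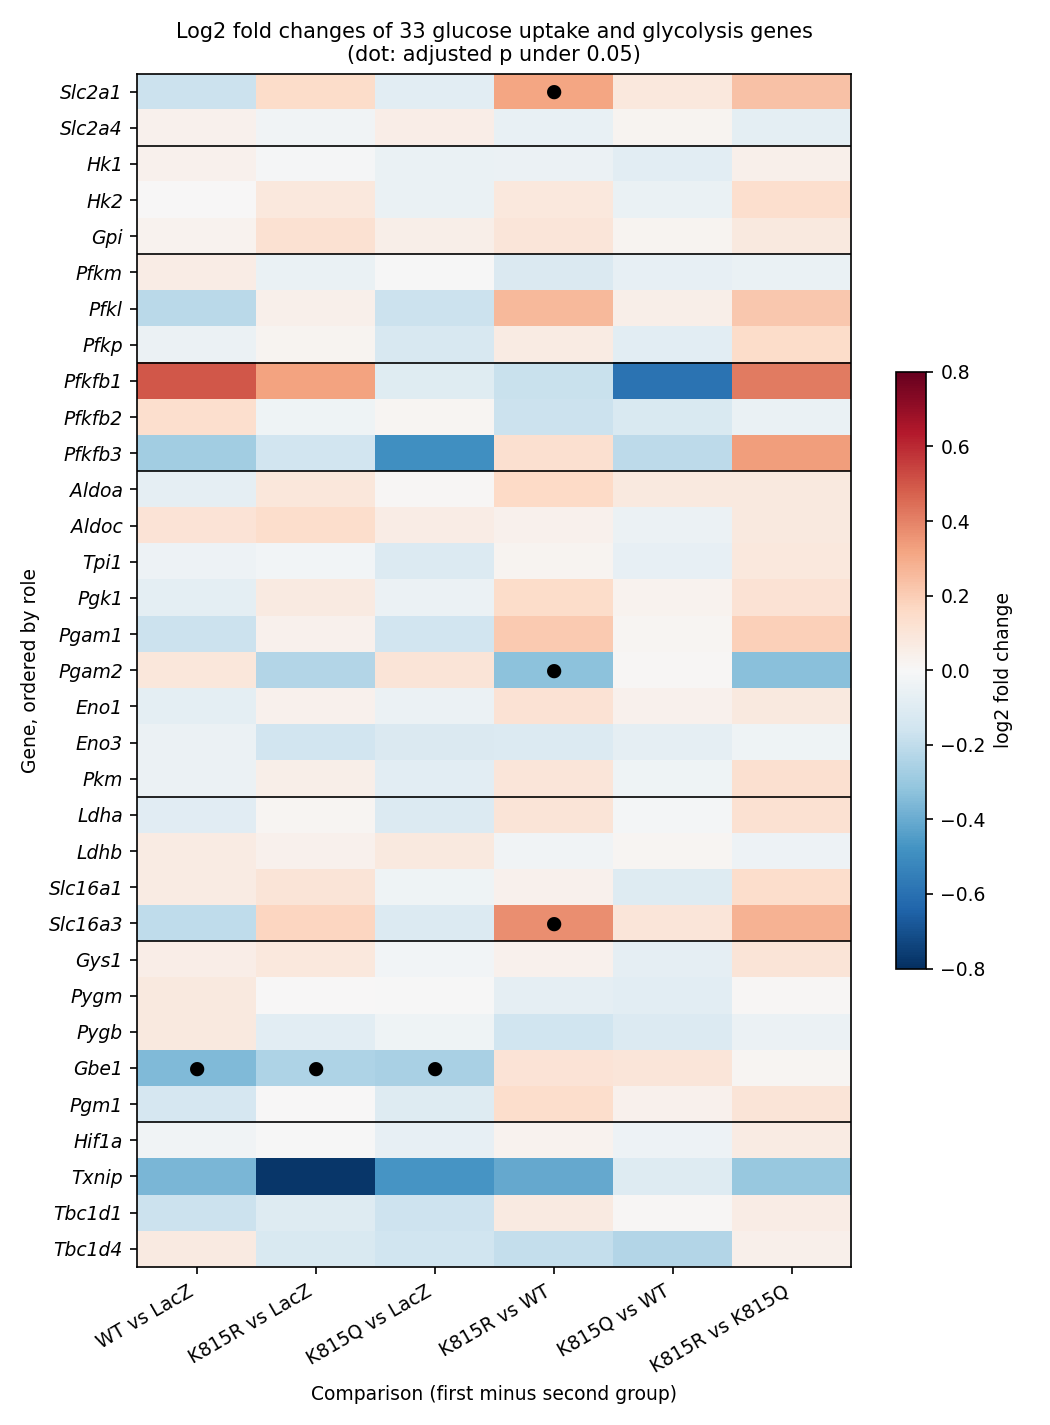
Log2 fold change of each of the 33 genes (rows, ordered by role, with lines between roles) in the 6 comparisons (columns, first minus second group), as colour from -0.8 to 0.8, with a dot where the adjusted p was under 0.05. Most cells are pale, Gbe1 has a dot in each comparison with LacZ, and Slc2a1, Slc16a3 and Pgam2 have a dot in K815R against WT.

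The promoters of the 4 called genes are printed because 2 of them rose and 1 fell in the same comparison, so that their upstream sequences can be set side by side. A RefSeq table of assembly GRCr8, a later assembly than the one the counts were made on, held the 250 bases before the start of 30 of the 33 genes. Capitals mark ACGTG or GCGTG, the core letters of the hypoxia response element, read on both strands, so CACGT and CACGC mark the other strand; neighbouring matches may overlap. All sequences are 5′ to 3′ on the strand of the gene. Slc2a1 lies on the plus strand (chr5:138002272-138002521), Slc16a3 on the plus strand (chr10:106712078-106712327), Pgam2 on the minus strand (chr14:84897875-84898124) and Gbe1 on the plus strand (chr11:22181026-22181275).
Slc2a1: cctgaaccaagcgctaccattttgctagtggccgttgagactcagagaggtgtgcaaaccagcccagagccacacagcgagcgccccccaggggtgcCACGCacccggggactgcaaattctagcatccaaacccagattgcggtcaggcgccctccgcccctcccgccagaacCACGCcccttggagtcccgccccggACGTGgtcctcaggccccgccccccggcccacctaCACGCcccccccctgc
Slc16a3: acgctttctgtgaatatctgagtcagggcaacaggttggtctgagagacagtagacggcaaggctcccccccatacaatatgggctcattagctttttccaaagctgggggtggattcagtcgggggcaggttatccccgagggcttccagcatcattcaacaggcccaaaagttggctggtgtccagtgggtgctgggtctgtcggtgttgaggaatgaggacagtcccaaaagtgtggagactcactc
Pgam2: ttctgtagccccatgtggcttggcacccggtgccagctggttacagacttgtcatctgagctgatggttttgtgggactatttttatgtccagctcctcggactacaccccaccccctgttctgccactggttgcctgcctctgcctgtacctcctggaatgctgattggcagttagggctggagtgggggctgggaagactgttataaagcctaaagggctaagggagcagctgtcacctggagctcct
Gbe1: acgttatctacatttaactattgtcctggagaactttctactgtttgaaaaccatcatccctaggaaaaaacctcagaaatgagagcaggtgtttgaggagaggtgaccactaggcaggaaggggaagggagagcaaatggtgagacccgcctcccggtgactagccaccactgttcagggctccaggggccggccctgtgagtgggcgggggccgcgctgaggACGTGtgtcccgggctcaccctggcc
The window of Slc2a1 held 4 matches, that of Gbe1 held 1, and those of Slc16a3 and Pgam2 held 0. Over the set, 21 of 30 windows (70.0%) held at least 1 match, against 36.7% of all 33469 promoter windows of that length. The letters GGGCGG, the GC box bound by Sp1-type factors, were in 20 of the 30 windows (66.7%), against 30.5% of all windows, and TATAAA was in 2 of 30 against 12.9%. All windows were taken whether or not the gene had counts here, while the 30 members had met the count minimum, so the 2 shares are not of like genes. The share among all tested genes was not counted. The window of Pgam2 held 1 TATAAA and 5 matches to CANNTG, the E-box that muscle transcription factors bind, which 19 of the 30 members and 65.5% of all windows held at least once. A match describes these letters only and is not evidence of a bound site, and both kinds of gene, called and not called, held matches.

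Among the glucose transporters, Slc2a1 (ENSRNOG00000007284) differed between K815R and WT and Slc2a4 was called in no comparison. Slc2a1 measured 200, 236 and 207 CPM in LacZ, 188, 187 and 196 in WT, 246, 249 and 218 with K815R, and 193, 219 and 194 in K815Q-labelled libraries. Every K815R library lay above every WT library, while LacZ lay above WT and overlapped K815R. The means were 191 ± 5.13 CPM (SD, n = 3) in WT and 237 ± 17.3 in K815R, a rise of 24.6% (log2 fold change 0.32, SE 0.066, 95% interval 0.18 to 0.45, adjusted p 0.0146 by edgeR). Against the LacZ mean of 214 ± 19.4 CPM, Slc2a1 had log2 fold changes of -0.17 in WT (adjusted p 0.153) and 0.15 in K815R (0.312), so neither was called against the control. With 1 library of either group left out, Slc2a1 still passed in 2 of 6 cases, and its log2 fold change stayed between 0.28 and 0.38. Without WT 1, WT 2, K815R 1 or K815R 2 the log2 fold change was 0.28 to 0.31, with adjusted p between 0.0682 and 0.0698. Over all genes, such smaller fits called 124 to 177 in K815R against WT, where all 12 libraries gave 309. Slc2a4, the insulin-responsive transporter, had group means between 176 and 186 CPM and log2 fold changes between -0.08 and 0.05. Its 95% intervals against LacZ reached from -0.13 to 0.16.

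The enzymes that trap and commit glucose had small log2 fold changes. Hexokinase 1, bound to mitochondria in most tissues, had group means of 281 to 298 CPM and log2 fold changes between -0.09 and 0.04. For hexokinase 2, the insulin-regulated muscle form, group means were 248 to 273 CPM and log2 fold changes -0.05 to 0.14. Glucose 6-phosphate isomerase (Gpi) had means of 849 to 925 CPM and log2 fold changes of 0.02 to 0.12. None of the 3 was called.

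The 3 subunit genes of phosphofructokinase were also not called. Pfkm, the muscle subunit, had group means of 360 to 390 CPM and log2 fold changes of -0.12 to 0.06. Pfkl, the liver subunit, had means of 254 to 304 CPM, and its log2 fold change in K815R against WT was 0.26 (95% interval 0.03 to 0.49, adjusted p 0.294 by edgeR). For Pfkp, the platelet subunit, the libraries held 266, 291 and 261 CPM in LacZ, 260, 259 and 273 in WT, 265, 288 and 276 with K815R, and 239, 249 and 261 in those labelled K815Q. The 2 lowest values were thus in libraries labelled K815Q, where the log2 fold change against LacZ was -0.13 (adjusted p 0.133).

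Fructose 2,6-bisphosphate, the strongest activator of phosphofructokinase, is made and removed by the Pfkfb enzymes. Pfkfb3 (ENSRNOG00000018911), the isoform with high kinase activity, measured 70.0, 86.1 and 74.6 CPM in LacZ, 59.6, 59.7 and 70.7 in WT, 72.0, 74.7 and 61.0 with K815R, and 44.8, 64.4 and 55.2 in K815Q-labelled libraries. The LacZ libraries lay above all those labelled K815Q, and WT and K815R overlapped both. The difference between the K815Q-labelled libraries and LacZ, -0.49 on the log2 scale (95% interval -0.80 to -0.17), did not pass the threshold by edgeR (adjusted p 0.066). It did pass by DESeq2 (adjusted p 0.0179) and in the edgeR fit without K815Q 2 (-0.62, adjusted p 0.0207). Pfkfb2, the heart isoform, had group means of 11.5 to 12.9 CPM and log2 fold changes of -0.17 to 0.14. Pfkfb1 held only 8 to 19 counts per library. Its log2 fold changes of -0.59 to 0.50 had intervals as wide as -0.81 to 0.62 in K815Q-labelled libraries against LacZ, so no difference was detectable at this depth.

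In lower glycolysis, 9 genes were measured, and only the 2 phosphoglycerate mutases, which convert 3-phosphoglycerate to 2-phosphoglycerate, were called in any test. Pgam2 (ENSRNOG00000013532), the muscle isoform, measured 35.1, 31.7 and 29.6 CPM in LacZ, 34.2, 37.0 and 31.8 in WT, 29.3, 26.8 and 26.1 with K815R, and 34.0, 32.2 and 37.4 in K815Q-labelled libraries. All K815R libraries lay below every library of the other groups. Its mean fell from 34.3 ± 2.58 CPM (SD, n = 3) in WT to 27.4 ± 1.67 in K815R (log2 fold change -0.33, SE 0.0776, 95% interval -0.49 to -0.17, adjusted p 0.028 by edgeR). Against LacZ the log2 fold change in K815R was -0.23 (adjusted p 0.126), and against the K815Q-labelled libraries it was -0.34 (adjusted p 0.0572 by edgeR and 0.0315 by DESeq2). The call against WT was kept in 2 of 6 fits that left out 1 library, and without WT 1, WT 2, K815R 2 or K815R 3 the log2 fold change was -0.33 to -0.27 with adjusted p between 0.0817 and 0.155.

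Pgam1 (ENSRNOG00000050585), the more widely expressed mutase, did the reverse in sign. It measured 866, 1011 and 861 CPM in LacZ, 822, 752 and 858 in WT, 949, 921 and 938 with K815R, and 794, 800 and 864 in K815Q-labelled libraries. K815R lay above all libraries of WT and of the K815Q label, and within the range of LacZ. The test for any difference among the 4 groups gave an adjusted p just under the threshold by edgeR, and 4 of the 12 fits without 1 library kept the call. No single comparison of Pgam1 passed, the nearest being K815R against WT (log2 fold change 0.21, 95% interval 0.08 to 0.33, adjusted p 0.0876).

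The other 7 enzymes of lower glycolysis had log2 fold changes of at most 0.16 in size in any comparison. Aldolase A, the main muscle aldolase, had group means of 2918 to 3255 CPM and log2 fold changes of -0.07 to 0.16, and aldolase C means of 254 to 280 CPM and -0.05 to 0.14. Triose phosphate isomerase (Tpi1) had means of 13.2 to 14.2 CPM and log2 fold changes of -0.11 to 0.09. Phosphoglycerate kinase 1 (Pgk1), the first ATP-yielding step, spanned 1108 to 1229 CPM and -0.08 to 0.15. Enolase 1 had means of 1210 to 1308 CPM and log2 fold changes of -0.08 to 0.11, and Eno3, the muscle enolase, 34.6 to 38.4 CPM and -0.15 to -0.04. Pyruvate kinase (Pkm), the last step, had means of 688 to 753 CPM and log2 fold changes of -0.08 to 0.13. Over all 9 genes and the 3 comparisons with LacZ, the 95% intervals reached from -0.39 to 0.28 on the log2 scale. Several of these genes have near-identical processed copies in mammalian genomes, and reads that aligned to more than 1 place were not counted, so their levels rest on part of their reads and are uncertain.

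For lactate, the exporter Slc16a3 (MCT4, ENSRNOG00000036677), the carrier typical of strongly glycolytic cells, was called in K815R against WT. It measured 227, 280 and 229 CPM in LacZ, 213, 191 and 235 in WT, 272, 277 and 278 with K815R, and 216, 234 and 232 in K815Q-labelled libraries. K815R lay above every WT library and every library labelled K815Q, and LacZ 2 lay with K815R. The means were 213 ± 22.2 CPM (SD, n = 3) in WT and 276 ± 2.89 in K815R, a rise of 29.4% (log2 fold change 0.37, SE 0.0783, 95% interval 0.21 to 0.54, adjusted p 0.0226 by edgeR). Against LacZ, at 245 ± 29.7 CPM, log2 fold changes were -0.20 in WT (adjusted p 0.158) and 0.17 in K815R (0.353). The call was kept in 1 of 6 fits that left out 1 library, and in the other 5 (without WT 1, WT 2 or any K815R library) the log2 fold change was 0.30 to 0.38 with adjusted p between 0.0667 and 0.102.

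Slc16a1 (MCT1), the carrier that also imports lactate, measured 143, 147 and 156 CPM in LacZ, 159, 160 and 148 in WT, 158, 158 and 164 with K815R, and 139, 152 and 145 in K815Q-labelled libraries. The K815R libraries lay above those of LacZ and of the K815Q label, by log2 fold changes of 0.11 (adjusted p 0.357) and 0.14 (adjusted p 0.275 by edgeR). Lactate dehydrogenase A, which favours lactate formation, had group means of 1299 to 1413 CPM and log2 fold changes of -0.11 to 0.12. Lactate dehydrogenase B, the heart form, had means of 1544 to 1632 CPM and log2 fold changes of -0.04 to 0.08. Neither was called.

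The 3 members called in K815R against WT kept their sign and their call under all 8 alternatives that left no single library out. In that comparison the summed cardiomyocyte markers did not overlap (36587 to 37612 CPM in K815R and 35369 to 36546 in WT), but the list went both ways. Of its 6 measured markers 2 were higher and 4 lower, with a median log2 fold change of -0.05, and the higher sum came from Actc1, cardiac actin, with means of 12092 CPM in K815R and 10320 in WT (adjusted p 0.0513 by edgeR). Of the 7 fibroblast markers, whose sums overlapped, Pdgfra rose (log2 fold change 0.54, adjusted p 7.6e-05) and Postn fell (-0.36, adjusted p 0.0023 by edgeR). The part of these markers in the 3 results was not tested.

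**Figure D2:**
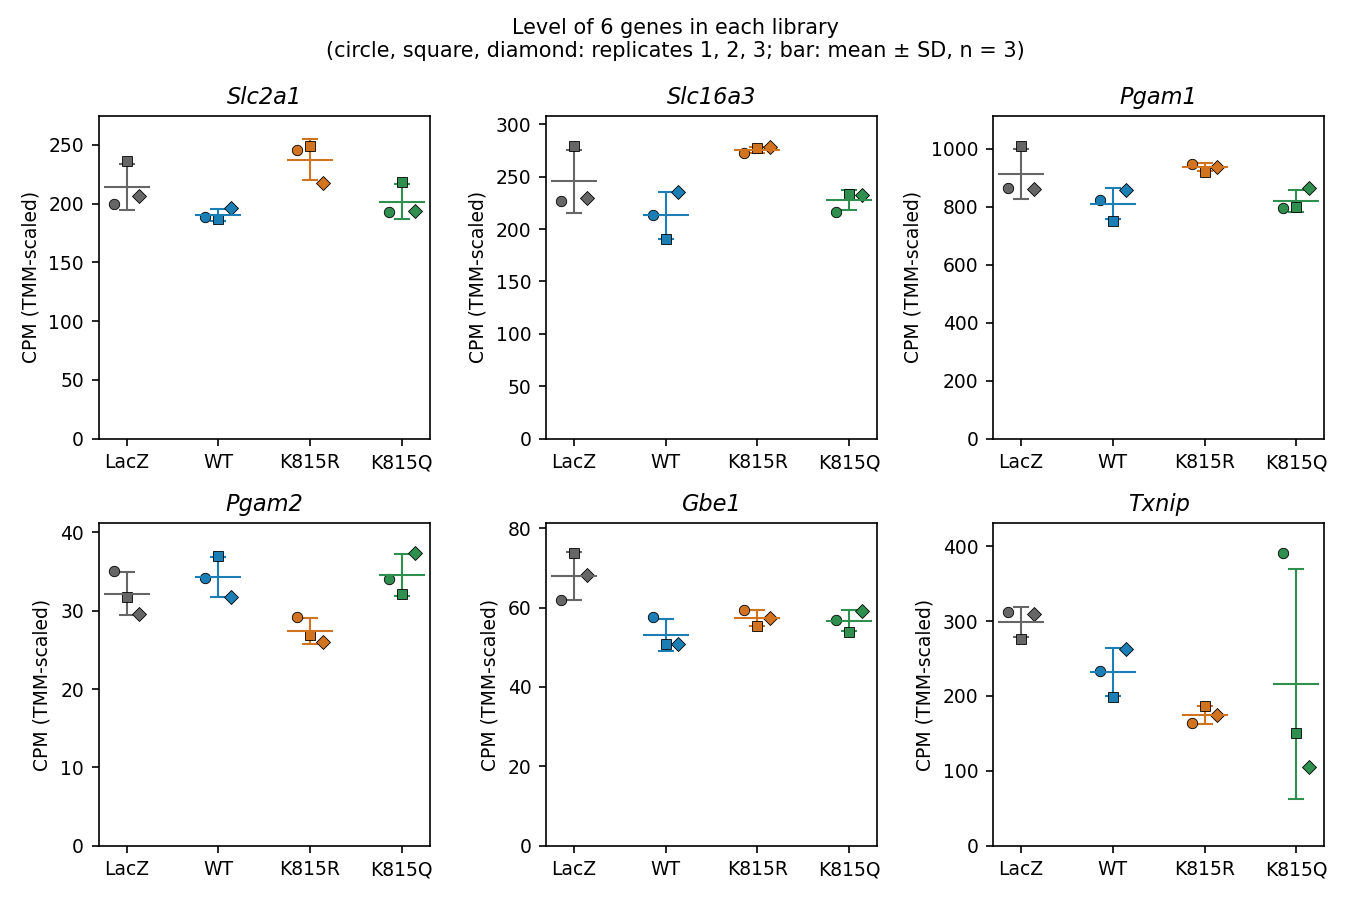
Level of 6 genes in each library (vertical axes, TMM-scaled CPM from 0; circle, square and diamond are replicates 1, 2 and 3; bars are mean ± SD, n = 3) for LacZ, WT, K815R and the K815Q-labelled libraries. Every K815R library lies above every WT library for Slc2a1, Slc16a3 and Pgam1 and below for Pgam2, Gbe1 is highest in LacZ, and Txnip spans 106 to 391 CPM in K815Q-labelled libraries.

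Of the glycogen enzymes, Gbe1 (ENSRNOG00000051232), which adds the branches of glycogen, was lower in each of the other 3 groups than in LacZ. It measured 61.8, 73.8 and 68.2 CPM in LacZ, 57.7, 50.7 and 50.7 in WT, 59.4, 55.3 and 57.4 with K815R, and 56.9, 53.9 and 59.1 in K815Q-labelled libraries. All 9 libraries of the other groups lay below the lowest LacZ library. From the LacZ mean of 67.9 ± 6.01 CPM (SD, n = 3), Gbe1 fell by 21.9% in WT, to 53.1 ± 4.02 CPM (log2 fold change -0.36, SE 0.0658, 95% interval -0.49 to -0.22, adjusted p 0.00177 by edgeR). This call was kept in all 6 fits that left out 1 library of either group, with log2 fold changes of -0.42 to -0.30 and adjusted p of 0.000687 to 0.0209. In K815R Gbe1 fell by 15.6%, to 57.4 ± 2.05 CPM (log2 fold change -0.24, 95% interval -0.38 to -0.11, adjusted p 0.0439). That call was kept in 1 of 6 such fits, with adjusted p of 0.270 without LacZ 2 (-0.18) and of 0.0721 to 0.132 without LacZ 3 or any K815R library. It was also lost under other alternatives, among them upper-quartile scaling (adjusted p 0.0547), a fit on only the 6 libraries compared (0.062) and one without the 3 K815Q-labelled libraries (0.0573), with log2 fold changes of -0.25 to -0.23 over all alternatives that left no single library out. In the K815Q-labelled libraries it fell by 16.6%, to 56.7 ± 2.61 CPM (log2 fold change -0.26, 95% interval -0.40 to -0.13, adjusted p 0.017). Here 2 of 6 such fits kept the call, and without LacZ 2 (-0.20, adjusted p 0.118), LacZ 3, K815Q 1 or K815Q 2 the adjusted p was 0.0592 to 0.118. Between those 3 groups Gbe1 did not pass the test, with log2 fold changes of 0.11 in K815R against WT (adjusted p 0.50), 0.09 in K815Q-labelled libraries against WT (0.549) and 0.02 in K815R against the K815Q-labelled libraries (0.950).

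The markers of macrophages and other leukocytes, 7 of 7 of which were above 0 in every library, had a summed level of 52.5 to 66.0 CPM in LacZ, 66.5 to 69.9 in WT, 65.6 to 70.9 in K815R and 69.7 to 75.9 in K815Q-labelled libraries. The sum was thus lowest in LacZ, with overlap only towards K815R, but its members differed. Lyz2, a macrophage lysozyme, rose against LacZ in all 3 other groups (means 19.8 CPM in LacZ and 24.8, 24.9 and 27.5 in WT, K815R and the K815Q-labelled libraries), while Adgre1 was highest in LacZ (means 3.14 against 2.37, 2.62 and 2.15 CPM) and fell in K815Q-labelled libraries (adjusted p 0.0356 by edgeR). Of the 7 fibroblast markers in WT against LacZ, 2 were higher and 5 lower. Pdgfra was called lower there (log2 fold change -0.36, adjusted p 0.00109 by edgeR) and Postn higher (0.35, 0.00104). In K815Q-labelled libraries against LacZ only Postn was called (0.20, adjusted p 0.0421 by edgeR), and in K815R against LacZ none of the 7. The part of the leukocyte and fibroblast markers in the Gbe1 result was not tested. Glycogen synthase 1 (Gys1) had group means of 197 to 211 CPM and log2 fold changes of -0.07 to 0.10. The glycogen phosphorylases, which release glucose units, had means of 648 to 686 CPM and log2 fold changes of -0.08 to 0.08 for Pygm, the muscle form, and 145 to 163 CPM and -0.16 to 0.08 for Pygb, the brain form. Phosphoglucomutase 1 (Pgm1), which links glycogen to glycolysis, had means of 211 to 232 CPM and log2 fold changes of -0.14 to 0.14. None of these 4 was called.

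Among the regulators, none was called in the fit reported here, which held all 12 libraries and a filter on low counts. Hif1a, the oxygen-regulated subunit of the factor that induces many glycolytic genes, had group means of 109 to 114 CPM and log2 fold changes of -0.07 to 0.07. Tbc1d1 and Tbc1d4 encode Rab GTPase-activating proteins that hold GLUT4 in intracellular vesicles until AMPK or Akt phosphorylates them. Tbc1d1 (ENSRNOG00000002180) measured 54.5, 55.4 and 58.6 CPM in LacZ, 52.3, 48.8 and 48.4 in WT, 52.1, 52.8 and 52.1 with K815R, and 47.4, 52.8 and 50.1 in K815Q-labelled libraries. All 9 libraries with KAT6A labels lay below those of LacZ. Its log2 fold changes against LacZ were -0.17 in WT (adjusted p 0.0758), -0.10 in K815R (0.443) and -0.16 in K815Q-labelled libraries (0.0732 by edgeR). Tbc1d4 (ENSRNOG00000009431) measured 56.4, 57.7 and 64.2 CPM in LacZ, 59.7, 61.4 and 66.1 in WT, 53.5, 56.9 and 53.4 with K815R, and 49.6, 58.2 and 51.6 in K815Q-labelled libraries. WT lay above K815R and the K815Q-labelled libraries without overlap. The test for any difference gave Tbc1d4 an adjusted p of 0.0615 by edgeR, and the log2 fold change against WT was -0.23 in K815Q-labelled libraries (adjusted p 0.0913) and -0.19 in K815R (0.143). Without the filter on low counts Tbc1d4 passed over the 4 groups (adjusted p 0.00817) and in K815Q-labelled libraries against WT (0.0189).

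Txnip (ENSRNOG00000021201), named here for its spread after its values were seen, encodes an arrestin-like protein that lowers glucose uptake by driving GLUT1 and GLUT4 into the cell, and its transcription rises with intracellular glucose. It measured 312, 276 and 310 CPM in LacZ, 234, 199 and 263 in WT, 163, 187 and 174 with K815R, and 391, 151 and 106 in K815Q-labelled libraries. LacZ, WT and K815R did not overlap one another, in that descending order, while K815Q 1 held the highest value of all 12 libraries and K815Q 3 the lowest. The coefficient of variation was 71.1% in K815Q-labelled libraries, against 6.7% to 13.8% in the other groups. With all 12 libraries sharing 1 estimate of spread, the log2 fold change in K815R against LacZ was -0.78 (SE 0.413, 95% interval -1.72 to 0.17, adjusted p 0.477 by edgeR). Fitted on the 6 libraries of K815R and LacZ alone, the same log2 fold change had an adjusted p of 2.9e-06. Such 6-library fits gave adjusted p of 0.0838 for WT against LacZ and 0.0576 for K815R against WT. In a fit without the 3 libraries labelled K815Q, chosen after seeing the data, the adjusted p was 0.00108 for K815R against LacZ, 0.0396 for WT against LacZ (log2 fold change -0.37) and 0.0486 for K815R against WT (-0.41). For the K815Q-labelled libraries against LacZ, the log2 fold change was -0.47 (adjusted p 0.538) with all libraries and -1.22 (adjusted p 0.00992) without K815Q 1. Arrdc4, a gene of the same arrestin family that is also glucose-responsive, was highest in K815Q 1 as well, at 24.2 CPM against 14.3 and 15.5 in K815Q 2 and 3 and 16.1 to 21.6 in the LacZ, WT and K815R libraries.

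In some groups a single library was the highest for most members. How often the same libraries were highest over all genes was not counted, so a trait of the members and one of the whole library cannot be told apart. LacZ 2 was the highest of its group in 23 of 33 genes, WT 3 in 24 and K815Q 3 in 22, whereas in K815R replicates 1, 2 and 3 were highest in 14, 10 and 9. The summed CPM of the 33 genes was 15115, 16595 and 14741 in LacZ, 14683, 14285 and 15928 in WT, 16138, 15508 and 16008 with K815R, and 14805, 14783 and 15568 in K815Q-labelled libraries. The LacZ libraries thus spanned the means of the other groups, and no 2 groups were separate. For 25 of the 33 members the coefficient of variation was under 10% in all 4 groups, and the share of all genes at that level was not counted.

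**Figure D3:**
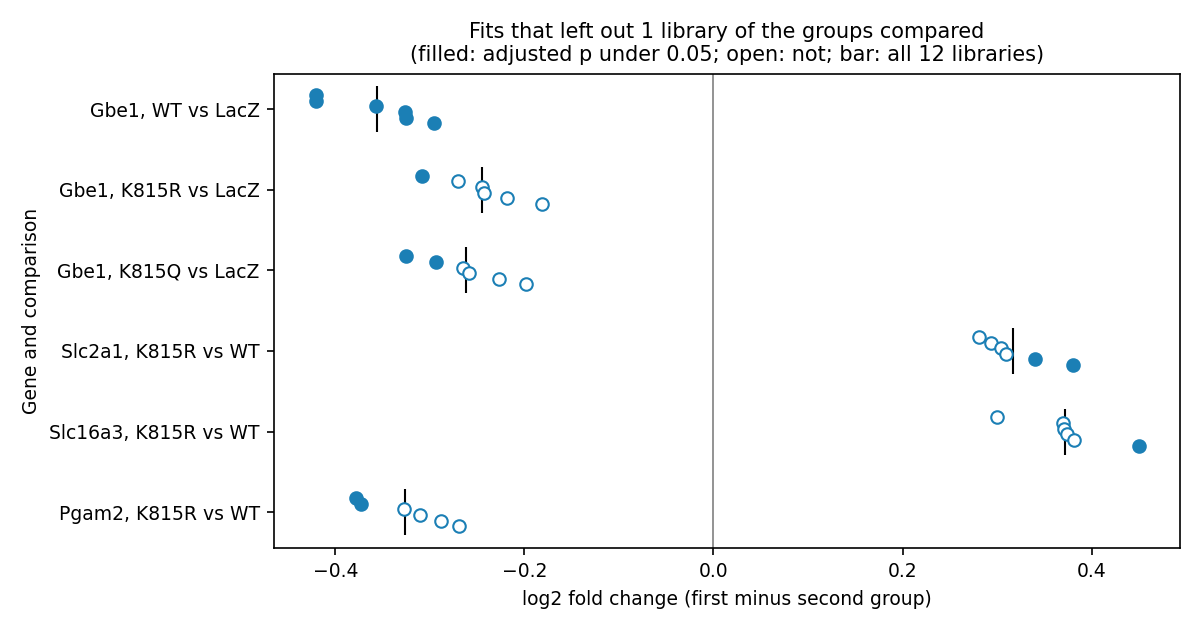
Log2 fold change (horizontal axis, first minus second group) of the 6 called results in fits that left out 1 library of the groups compared, with a bar at the value from all 12 libraries and filled circles where the adjusted p stayed under 0.05. All circles of Gbe1 in WT against LacZ are filled, and of the others 1 or 2 of 6 are filled in each row, with no change of sign.

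Genes that neighbour the set in glucose metabolism were read from lists of 99 further genes, of which 94 matched a row and 87 were tested. Each count is given with its share and, after it, the share of all genes. In WT against LacZ 5 of the 87 were called (5.75%, all genes 5.34%), in K815R against LacZ 1 (1.15%, all genes 2.47%), and in K815Q-labelled libraries against LacZ 6 (6.90%, all genes 7.85%). In K815R against WT 7 were called (8.05%, all genes 2.20%), of which 5 rose, and in K815Q-labelled libraries against WT 2 (2.30%, all genes 1.07%). In K815R against the K815Q-labelled libraries edgeR called 0 (all genes 0.363%), and DESeq2 also called 0. At an unadjusted p under 0.05 by edgeR stood 15 of the 87 there, and 13 to 23 over the 6 comparisons. The share of all genes at that level was not counted. The median log2 fold change of the 87 lay between -0.04 and 0.04 in all 6 comparisons. Altogether 14 of the 87 were called in some pair.

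Of 18 tested genes of glycogen handling, 2 were called in K815R against WT, beside 2.20% of all genes, with 9 log2 fold changes above 0 and 9 below, and the median log2 fold change was 0.02. Pygl, the liver glycogen phosphorylase, measured 35.0, 38.1 and 34.5 CPM in LacZ, 29.8, 28.3 and 30.3 in WT, 40.7, 39.6 and 40.1 with K815R, and 34.0, 37.2 and 35.6 in K815Q-labelled libraries. WT lay below and K815R above all other libraries. Pygl rose by 0.45 on the log2 scale in K815R against WT (adjusted p 0.000268 by edgeR) and fell by 0.28 in WT against LacZ (adjusted p 0.00709), and these calls were kept in 6 and 4 of 6 fits without 1 library (adjusted p up to 0.0581 for the latter). It also rose by 0.27 in K815Q-labelled libraries against WT (adjusted p 0.0334), a call that none of 6 such fits kept. Ugp2, which makes the UDP-glucose that glycogen synthase uses, averaged 95.6 CPM with LacZ, 85.3 with WT, 98.4 with K815R and 92.8 in K815Q-labelled libraries, and it rose by 0.21 in K815R against WT (adjusted p 0.024) and fell by 0.16 in WT against LacZ (0.0434). These Ugp2 calls were kept in 2 and 1 of 6 such fits.

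In the hypoxia-inducible factor list, all 13 tested genes had a negative log2 fold change in WT against LacZ, with a median of -0.12, and 1 was called (all genes 5.34%). In K815Q-labelled libraries against LacZ 11 of 13 were negative, with a median of -0.13, and edgeR called 0 (all genes 7.85%). An unadjusted p under 0.05 by edgeR was reached by 5 of the 13 there, by 3 in WT against LacZ, and by 3 to 5 over the 6 comparisons. The share of all genes at that level was not counted, so no background stands beside these. In K815R against WT the median was 0.14 and 2 were called, both higher (all genes 2.20%). Adm, the secreted vasodilator adrenomedullin and a known target of the factor, measured 44.4, 48.8 and 40.6 CPM in LacZ, 26.8, 27.0 and 31.7 in WT, 44.0, 43.3 and 35.5 with K815R, and 35.4, 39.5 and 35.4 in K815Q-labelled libraries. Every WT library lay below every other library. Adm fell by 0.64 on the log2 scale in WT against LacZ (adjusted p 0.000239 by edgeR) and rose by 0.52 in K815R against WT (0.00544), and both calls were kept in all 6 fits without 1 library. Egln1, the prolyl hydroxylase that marks the factor for degradation and is itself one of its targets, measured 46.4, 48.7 and 50.8 CPM in WT and 58.3, 60.1 and 62.6 in K815R, a rise of 0.31 (adjusted p 0.00586, kept in 6 of 6).

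Arrdc3, a further arrestin-like gene, split the groups in another way. It measured 37.9, 40.2 and 43.2 CPM in LacZ, 39.0, 37.7 and 45.2 in WT, 30.3, 32.1 and 31.0 with K815R, and 31.1, 31.3 and 26.9 in K815Q-labelled libraries. K815R and the K815Q-labelled libraries lay below LacZ and WT. It fell by 0.38 on the log2 scale in K815R against LacZ (adjusted p 0.00553 by edgeR) and against WT (0.00801), and by 0.44 and 0.45 in K815Q-labelled libraries against LacZ (0.000794) and WT (0.00384). Of these calls the one in K815R against WT was kept in 5 of 6 fits without 1 library, and the others in 6 of 6. Pdk3, a kinase that closes pyruvate dehydrogenase, was higher by 0.32 in K815R than in WT (means 25.6 and 20.5 CPM, adjusted p 0.0208 by edgeR), and 3 of 6 fits without 1 library kept the call. Its means were 24.0 CPM in LacZ and 22.6 in K815Q-labelled libraries. In the hexosamine branch, Uap1, which makes UDP-N-acetylglucosamine, fell by 0.30 in WT against LacZ (means 24.6 and 30.3 CPM, adjusted p 0.00672, kept in 6 of 6). Gfpt2, an isoform of the first enzyme of that branch, fell by 0.27 in K815Q-labelled libraries against LacZ (means 36.8 and 44.3 CPM, adjusted p 0.00877 by edgeR, kept in 6 of 6). Ogt, which attaches the sugar to proteins, was lower by 0.25 in K815R than in WT (means 153 and 182 CPM, adjusted p 0.0381 by edgeR), a call that none of the 6 fits without 1 library kept. Its means were 158 CPM in LacZ and 154 in K815Q-labelled libraries, and every WT library lay above all other libraries.

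**Figure D4:**
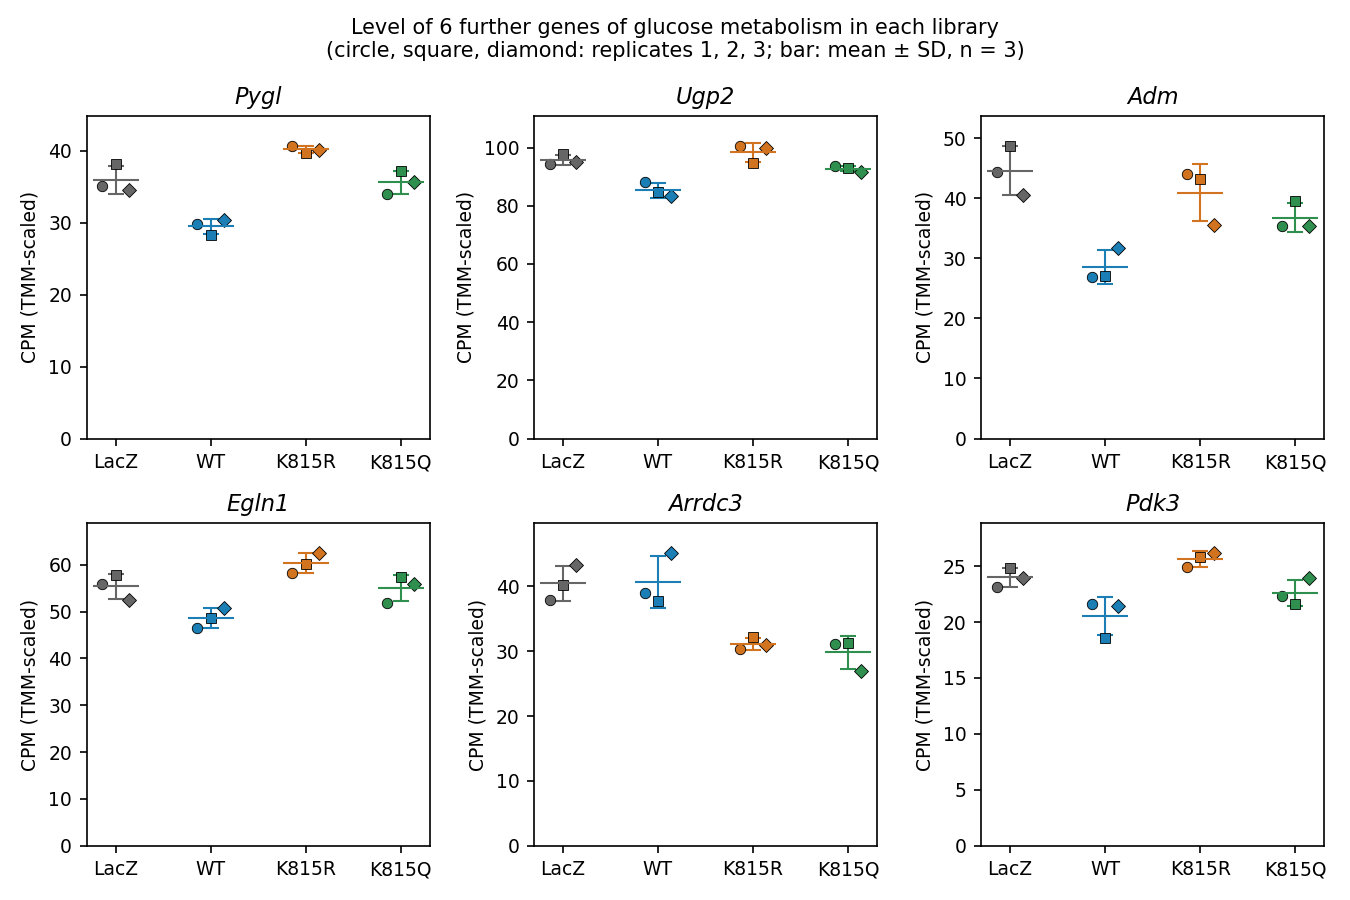
Level of 6 neighbouring genes in each library (vertical axes, TMM-scaled CPM from 0; circle, square and diamond are replicates 1, 2 and 3; bars are mean ± SD, n = 3) in the 4 groups. Pygl, Ugp2, Adm, Egln1 and Pdk3 are lower in WT than in K815R, and Arrdc3 is lower in K815R and in K815Q-labelled libraries than in LacZ and WT.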

How the data were processed

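The authors deposited 1 table of raw read counts per gene for the 12 libraries of poly(A)-selected RNA, 3 in each of 4 groups taken from the sample titles. The submitters' processing notes name Trimmomatic 0.39, HISAT2 2.2.1, HTSeq 0.6.1, edgeR and the build Rnor_6.0; the annotation and the strand setting of the counting are not given in the sources used here, so genes that overlap another gene are uncertain. The table ends in 5 counter lines that name no gene, which stayed out of all totals; 25.6% to 26.9% of reads aligned to more than 1 place and 11.7% to 12.9% lay in no feature. Within groups, the counts of 2 libraries differed by more than sampling noise (chi-square per degree of freedom 4.78 to 9.29), and each counted as 1 replicate.

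Counts were scaled by TMM, filtered by filterByExpr (minimum count 10, minimum total 15) and fitted in edgeR 4.0.16 (R 4.3.3) by the robust quasi-likelihood method, with the 4 group means in 1 model and Benjamini-Hochberg adjustment over 14063 genes. Each SE is the log2 fold change divided by the root of its F statistic. Alternatives were other scalings and filters, DESeq2 1.42.0, the replicate number as a block, only the 6 libraries compared, and leaving out each library. The fit was tested on simulated counts. Promoters came from a RefSeq table of GRCr8 by symbol. Values in every library are given for called members and for the 5 uncalled members with the lowest p over the 4 groups, plus Txnip; of the neighbouring genes, at most 10 called ones with the lowest such p are named, of which 1 is not reported here. The members, lists and this rule were chosen with earlier results of these data known.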

Additional observations from a re-analysis of the deposited data

How the results depend on the processing

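The member count is small, so single genes move it. Without a filter on low counts the members called were 4 in WT against LacZ, 2 in K815R against LacZ, 2 in the libraries labelled K815Q against LacZ, 1 in those against WT and 4 in K815R against the libraries labelled K815Q. Upper-quartile scaling called 0 in K815R against LacZ. DESeq2 called 2 in the libraries labelled K815Q against LacZ and 2 in K815R against the libraries labelled K815Q, and fits on only the 6 libraries compared called 2 in the latter. Without the 3 libraries labelled K815Q, an alternative chosen after seeing the data, 2 were called in WT against LacZ. No share of all genes stands beside these counts, and the number called over all genes moved as well. Alternatives that left no single library out called 669 to 1018 genes in WT against LacZ and 315 to 600 in K815R against LacZ. They called 999 to 1528 in the libraries labelled K815Q against LacZ and 149 to 423 in those against WT. In K815R against those they called 37 to 307. Leaving out 1 library gave 1 to 2 members in WT against LacZ, 0 to 1 in K815R against LacZ, 0 to 3 in the libraries labelled K815Q against LacZ, 0 to 3 in K815R against WT, 0 to 1 in the libraries labelled K815Q against WT, 0 to 2 in K815R against those, and 2 to 6 for any difference. Over all genes, leaving out 1 library moved the count from 309 to between 124 and 177 in K815R against WT. In the libraries labelled K815Q against LacZ it moved from 1104 to between 360 and 1182. Such fits gave 378 to 639 genes in WT against LacZ, 173 to 308 in K815R against LacZ and 50 to 146 in the libraries labelled K815Q against WT. In K815R against the libraries labelled K815Q they gave 11 to 98, and 650 to 1309 for any difference.

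Same-numbered libraries share only a number: 1 of 18 pairs had deviations correlated above 0.1 (range -0.127 to 0.122), and 4 of 12 libraries correlated best with their own number. With the replicate block, 0 members were called in K815R against LacZ (Gbe1 at an adjusted p of 0.0561), 2 in the libraries labelled K815Q against LacZ and 1 in K815R against the libraries labelled K815Q.

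The median of the members moved by less than 1 SD between libraries in 80 of 81 alternative values; in K815R against LacZ it ranged from -0.015 to 0.063 when 1 library was left out. Txnip changed sign without 1 library labelled K815Q, ranging from -0.85 to 0.23 in those libraries against WT and from -0.63 to 0.45 in K815R against them. Why these values moved was not tested. Scalings shifted the median of all genes by at most 0.012.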

Other observations

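Eno2, the neuronal enolase, was at 7.54 CPM in K815R 3 and at 0.152 to 0.779 CPM in the other 11 libraries, and no cause was tested.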
